A study of Arabidopsis thaliana with 9 samples.

Results

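The transcripts described here belong to the enzymes that make and inactivate brassinosteroids in Arabidopsis thaliana, chosen by locus identifier: DET2 (AT2G38050), DWF4 (AT3G50660), CPD (AT5G05690), ROT3 (AT4G36380), CYP90D1 (AT3G13730), BR6OX1 (AT5G38970), BR6OX2 (AT3G30180) and BAS1 (AT2G26710). All 8 were among the 20777 measured loci. Affymetrix ATH1 arrays were hybridised with RNA from the vegetative part of seedlings, and the values are log2 levels from RMA, which corrects background, equalises arrays and summarises the probes of a gene. The 9 arrays were 3 biological repeats each of wild type, of a line labelled 35S::AVP1 and of a line with extra BRI1, all in ecotype Col-0. The 35S promoter of cauliflower mosaic virus, which is active in most plant cells, drives the transgene named in the 35S::AVP1 label. The genotype entry of the BRI1 line is pBRI1::BRI1 and its source name is 35S::BRI1, so its promoter is uncertain. Seedlings of every genotype were raised on MS medium (22 °C, days of 16 h light and 8 h dark) up to growth stage 1.03. No label says how many independent transformants each line stands for.

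Brassinosteroids are steroid hormones made from the membrane sterol campesterol, and plants that lack them are dwarfs with small, dark leaves. DET2 reduces the steroid ring system early in the route, DWF4 hydroxylates the side chain in a step often described as rate-limiting, and CPD, ROT3 and CYP90D1 are further cytochrome P450 enzymes of the CYP90 family. BR6OX1 and BR6OX2 oxidise the ring to castasterone, and BR6OX2 can also carry it on to brassinolide, the most active form. BAS1, a P450 of another family, hydroxylates and so inactivates both castasterone and brassinolide. The hormone is perceived at the cell surface by the receptor kinase BRI1, and in Arabidopsis the transcription factors that act after BRI1 are known to repress several synthesis genes, while BAS1 is known as a gene induced by the hormone.

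BRI1 RNA was 6.66-fold above wild type in the BRI1 line, whereas AVP1 RNA was not called higher where the label is 35S::AVP1 (log2 change -0.09, 95% interval -0.25 to 0.07, limma adjusted p = 0.489), and those arrays are therefore called by their label. Array medians were 6.34 to 6.42. Across loci, which are no independent replicates, r was 0.990 to 0.997 between arrays of the same genotype. It was 0.980 to 0.987 between the arrays labelled 35S::AVP1 and the others. The r between the BRI1 line and wild type is not given, so these values do not show which genotype stood apart. CA1, a leaf carbonic anhydrase and the 1 measured locus of 4 green leaf markers, lay at the 99.9 percentile of every array. The tests below come from 1 limma model over all loci and all 9 arrays, with the Benjamini-Hochberg adjustment taken over the 20777 loci, and a transcript is called where its adjusted p is under 0.05. Whether a lower level reflects fewer cells of a type or less RNA per cell cannot be told apart in such whole-tissue samples.

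In the BRI1 line 4 synthesis transcripts were called lower than in wild type, namely BR6OX2, DWF4, CPD and CYP90D1. Of all loci 0.0818% were called there. The 4 calls were near the threshold and were lost when only the 6 arrays compared were fitted. The transcript of the inactivating enzyme BAS1 stood 1.80-fold above wild type without passing the test over all loci. In the arrays labelled 35S::AVP1 BR6OX1 and BR6OX2 were called higher and DWF4 lower, beside 11.1% of all loci called. BR6OX2 was 3.04-fold lower in the BRI1 line than in the arrays labelled 35S::AVP1. DET2 and ROT3 passed no test in any of the 3 comparisons.

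**Figure D1:**
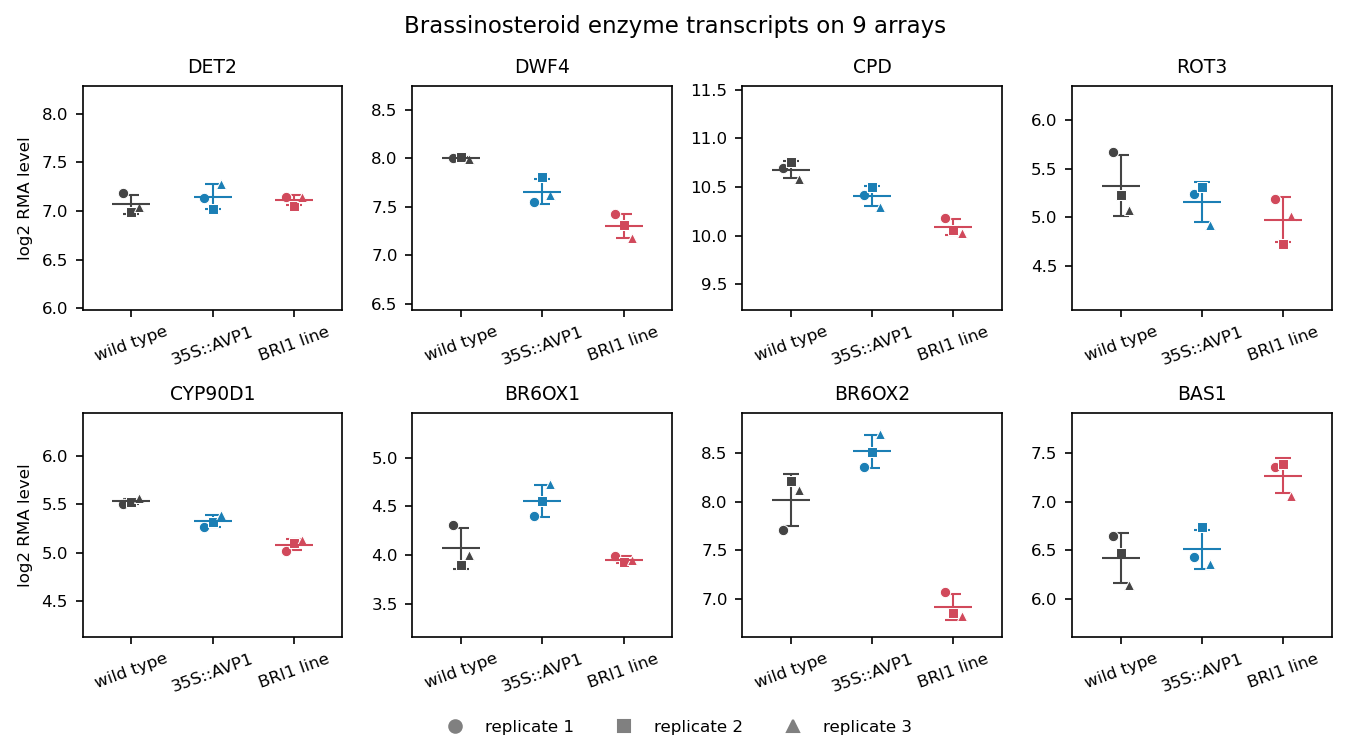
Log2 RMA level (y axis, the same span in every panel) of the 8 transcripts in wild type, the arrays labelled 35S::AVP1 and the BRI1 line. Points are arrays, shaped by replicate number, and the bar and whiskers are the mean ± SD of 3 arrays. The 3 groups are fully separated for DWF4, CPD, CYP90D1 and BR6OX2, and they overlap for DET2 and ROT3.

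DET2, the early steroid reductase, measured 7.18, 6.99 and 7.04 in wild type, 7.13, 7.03 and 7.28 in the arrays labelled 35S::AVP1 and 7.15, 7.05 and 7.14 in the BRI1 line. The groups overlapped throughout. Its log2 change was 0.04 in the BRI1 line (95% interval -0.14 to 0.23) and 0.08 in the arrays labelled 35S::AVP1 (-0.11 to 0.26), with limma adjusted p-values of 0.999 and 0.637.

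DWF4, the side-chain hydroxylase, measured 8.00, 8.01 and 7.99 in the wild type arrays. It measured 7.55, 7.80 and 7.62 in those labelled 35S::AVP1 and 7.43, 7.31 and 7.17 in the BRI1 line. Every wild type array was above every array labelled 35S::AVP1, and each of those was above every array of the BRI1 line. The mean was 8.00 ± 0.00846 in wild type and 7.30 ± 0.126 in the BRI1 line (SD, n = 3), a fall of 1.62-fold (log2 change -0.70, SE 0.09, 95% interval -0.89 to -0.50, limma adjusted p = 0.0288). In the arrays labelled 35S::AVP1 the mean was 7.66 ± 0.132 and the fall was 1.27-fold (log2 change -0.34, SE 0.09, limma adjusted p = 0.0304). The BRI1 line was also below the arrays labelled 35S::AVP1, by 1.28-fold (log2 change -0.35, limma adjusted p = 0.0289).

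CPD, the P450 that oxidises the ring of the side-chain-hydroxylated intermediates, measured 10.70, 10.76 and 10.58 in wild type. It measured 10.42, 10.5 and 10.30 in the arrays labelled 35S::AVP1 and 10.18, 10.05 and 10.03 in the BRI1 line. The 3 groups followed the same order as for DWF4 and did not overlap. CPD fell 1.51-fold in the BRI1 line (log2 change -0.59, SE 0.08, 95% interval -0.77 to -0.41, limma adjusted p = 0.0409). Its change of -0.27 in the arrays labelled 35S::AVP1 (SE 0.08, -0.45 to -0.09) did not pass, at an adjusted p of 0.0599. It was called after median centring (adjusted p = 0.0311), with a mean-variance trend (0.0405) and with the replicate number as a block (0.0372), and in none of the other 3 settings or the 9 fits without 1 array. Between the lines it was 1.25-fold lower in the BRI1 line (log2 change -0.32, limma adjusted p = 0.0314).

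ROT3 and CYP90D1 are close relatives within the CYP90 family whose enzymes hydroxylate the side chain and overlap in function. CYP90D1 measured 5.51, 5.52 and 5.56 in wild type, 5.27, 5.32 and 5.39 in the arrays labelled 35S::AVP1 and 5.02, 5.10 and 5.13 in the BRI1 line. It repeated the order of DWF4 and CPD, with no overlap between the groups. CYP90D1 fell 1.36-fold in the BRI1 line (log2 change -0.45, SE 0.06, 95% interval -0.59 to -0.30, limma adjusted p = 0.0486). That call held in 1 of 6 other settings and in 0 of the 9 fits without 1 array. The limma adjusted p was 0.0532 with the replicate number as a block, 0.0591 after quantile normalization and 0.0942 after median centring. It was 0.123 with a mean-variance trend and 0.17 when only the 6 arrays compared were fitted. The -0.20 of CYP90D1 in the arrays labelled 35S::AVP1 did not pass (adjusted p = 0.0774). Between the lines CYP90D1 was 1.19-fold lower in the BRI1 line (log2 change -0.25, limma adjusted p = 0.0376). This call held in 2 of 6 other settings and in 1 of the 9 fits without 1 array.

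ROT3 varied more between arrays of a genotype than CYP90D1 did. It measured 5.67, 5.23 and 5.07 in wild type, 5.24, 5.31 and 4.92 in the arrays labelled 35S::AVP1 and 5.18, 4.73 and 5.01 in the BRI1 line. The groups overlapped, and the SD was 0.312 in wild type against 0.0271 for CYP90D1. The log2 change of ROT3 was -0.35 in the BRI1 line (95% interval -0.73 to 0.03, adjusted p = 0.95), an interval that holds the value of CYP90D1. The difference between ROT3 and CYP90D1 within an array was -0.20 ± 0.335 in wild type, -0.17 ± 0.260 in the arrays labelled 35S::AVP1 and -0.11 ± 0.269 in the BRI1 line (SD, n = 3). It differed between the BRI1 line and wild type by 0.10 (two-sided exact permutation p = 0.7). With 3 arrays against 3 such a test cannot go below 0.1, so it says nothing on whether the pair changed alike.

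BR6OX1 and BR6OX2 are paralogs for the ring oxidation to castasterone. BR6OX2, which also makes brassinolide, measured 7.71, 8.22 and 8.12 in wild type, 8.36, 8.51 and 8.70 in the arrays labelled 35S::AVP1 and 7.07, 6.85 and 6.83 in the BRI1 line. All arrays labelled 35S::AVP1 were above wild type and all of the BRI1 line below it. BR6OX2 fell 2.14-fold in the BRI1 line, from 8.02 ± 0.27 to 6.92 ± 0.13 (SD, n = 3; log2 change -1.10, SE 0.14, 95% interval -1.41 to -0.79, limma adjusted p = 0.0288). It rose 1.42-fold in the arrays labelled 35S::AVP1, to 8.52 ± 0.17 (log2 change 0.51, SE 0.14, 95% interval 0.20 to 0.81, limma adjusted p = 0.0422). The difference between the lines was -1.61 (SE 0.14, 95% interval -1.91 to -1.30, limma adjusted p = 4.97e-05).

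BR6OX1 was the dimmest of the 8, between the 14.1 and 30.4 percentile of the arrays, whose 10th percentile was 3.71 to 3.79. It measured 4.31, 3.90 and 4.001 in wild type, 4.40, 4.56 and 4.73 in the arrays labelled 35S::AVP1 and 3.99, 3.93 and 3.94 in the BRI1 line. The BRI1 line lay within the wild type range, and the arrays labelled 35S::AVP1 lay above both. BR6OX1 rose 1.41-fold there (log2 change 0.49, SE 0.11, 95% interval 0.24 to 0.75, limma adjusted p = 0.0206). Its change in the BRI1 line was -0.11 (95% interval -0.37 to 0.14, adjusted p = 0.986), and between the lines -0.61 (limma adjusted p = 0.00746).

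The difference BR6OX2 minus BR6OX1 within an array was 3.40, 4.32 and 4.12 in wild type and 3.96, 3.95 and 3.97 in the arrays labelled 35S::AVP1. In the BRI1 line it was 3.08, 2.93 and 2.89, below every other array. Against wild type the BRI1 line differed by -0.98, and against the arrays labelled 35S::AVP1 by -0.999. An exact permutation test (two-sided) gave p = 0.1 for each, the smallest that 3 arrays against 3 allow, and 0.3 after adjustment over the 6 such tests. For the arrays labelled 35S::AVP1 against wild type the difference was 0.01 (exact p = 1). A fall of BR6OX1 as large as that of BR6OX2 would have taken it below the 10th percentile of the arrays, the low end of the scale, so no unequal change of the pair is read from these values.

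BAS1, the inactivating hydroxylase, measured 6.65, 6.47 and 6.14 in wild type, 6.43, 6.74 and 6.36 in the arrays labelled 35S::AVP1 and 7.36, 7.38 and 7.06 in the BRI1 line. Every array of the BRI1 line was above the other 6, which overlapped. Its log2 value was 0.85 above wild type in the BRI1 line (SE 0.15, 95% interval 0.52 to 1.18), at a limma adjusted p of 0.121 over all loci (unadjusted 0.000189). It was called in 1 of 6 other settings, with the replicate number as a block (limma adjusted p = 0.0333). In the 9 fits without 1 array it was called in 0 (limma adjusted p 0.107 to 0.4). Against the arrays labelled 35S::AVP1 it was 1.69-fold higher and was called (log2 change 0.76, 95% interval 0.43 to 1.09, limma adjusted p = 0.00926). The arrays labelled 35S::AVP1 differed from wild type by 0.09 (-0.24 to 0.42).

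**Figure D2:**
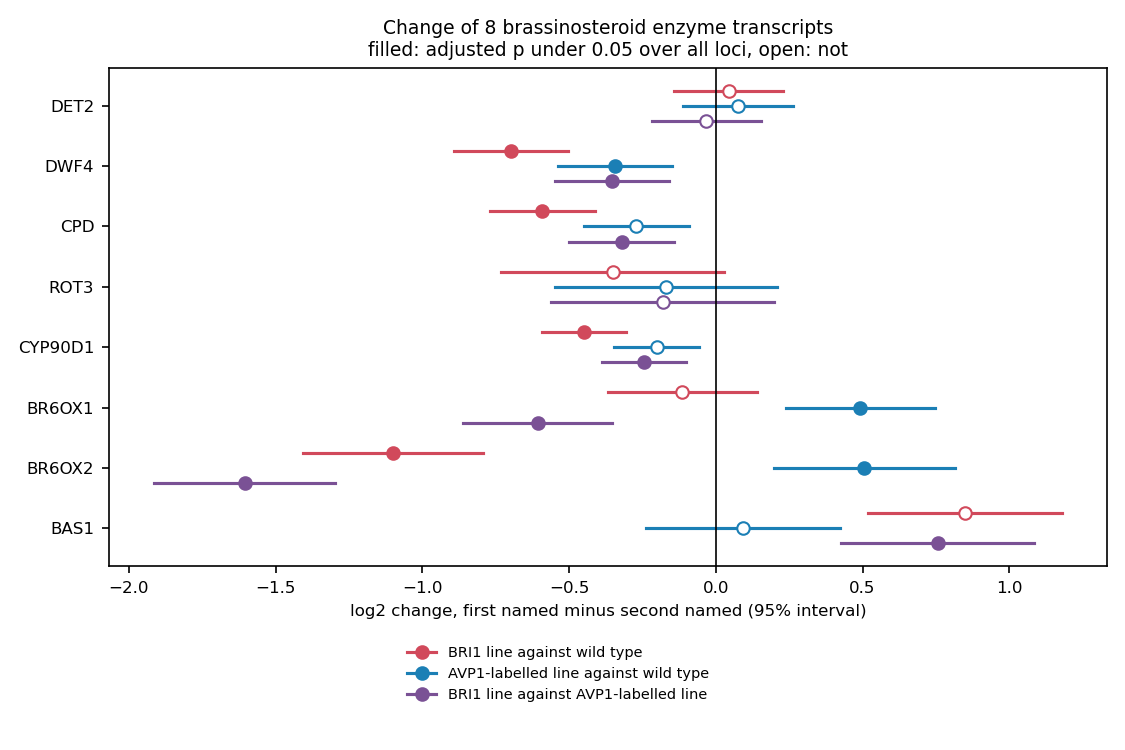
Log2 change with its 95% interval (x axis) of each transcript in the 3 comparisons. Filled points have an adjusted p under 0.05 over all loci and open points do not. BR6OX2 lies at -1.10 in the BRI1 line and at 0.51 in the arrays labelled 35S::AVP1, and all 3 intervals of DET2 and of ROT3 include 0.

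Counted together, 4 of the 8 transcripts fell and 0 rose in the BRI1 line against wild type, where 17 of 20777 loci (0.0818%) were called, 8 higher (0.0385%) and 9 lower (0.0433%). After quantile normalization the loci called were 9 higher and 5 lower, and after median centring 11 and 6. BR6OX2 ranked 26, DWF4 70, CPD 110 and CYP90D1 187 of 20777 loci by the size of the fall, and BAS1 ranked 19 by the size of the rise. Levels did not overlap between the groups for 5 of the 8, against 10.1% of all loci: 1 was higher (4.38% of all loci) and 4 were lower (5.75%). The median log2 change was -0.40 for the 8 and -0.01 for all loci. The calls were near the threshold: leaving out any 1 array ended those of CPD and CYP90D1 (adjusted p 0.0623 to 0.233), that of DWF4 held only without replicate 1 or 2 labelled 35S::AVP1, and that of BR6OX2 only without wild type replicate 1 or replicate 1 or 3 labelled 35S::AVP1 (up to 0.197 for both). The log2 changes themselves stayed within -0.76 to -0.63 for DWF4, -0.64 to -0.55 for CPD, -0.47 to -0.42 for CYP90D1 and -1.25 to -0.998 for BR6OX2 in those 9 fits, and all 4 calls were lost when only the 6 arrays compared entered the model (adjusted p 0.0763 to 0.17).

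Of the 8 transcripts, 2 rose and 1 fell in the arrays labelled 35S::AVP1 against wild type, beside 2300 of all loci (11.1%), 1310 higher (6.31%) and 990 lower (4.76%). Levels did not overlap between the groups for 5 of the 8, against 28.4% of all loci: 2 were higher (18.8%) and 3 were lower (9.63%). The median log2 change was -0.05 for the 8 and 0.05 for all loci. After quantile normalization the loci called were 1065 higher and 1102 lower, and after median centring 1010 and 1125. The rises were lost after quantile normalization (adjusted p = 0.0512 for BR6OX1 and 0.0575 for BR6OX2), where CYP90D1 fell instead (adjusted p = 0.0417). Both rises were also lost when only the 6 arrays compared were fitted (limma adjusted p = 0.0553 and 0.0787), and that of BR6OX2 after median centring (0.0632). Leaving out 1 array ended the call of DWF4 for any wild type array or replicate 1 or 3 labelled 35S::AVP1 (adjusted p up to 0.108), of BR6OX1 for wild type replicate 2 or 3 or replicate 2 or 3 labelled 35S::AVP1 (up to 0.0798), and of BR6OX2 for all but wild type replicate 2, replicate 1 labelled 35S::AVP1 and BRI1 line replicate 1 (up to 0.132).

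Markers of other organs moved in the same arrays. Against wild type 6.31% of all loci were called higher in the arrays labelled 35S::AVP1. Of 6 flower markers 2 were called higher in the arrays labelled 35S::AVP1, the floral organ genes SEP3 (1.80) and AG (0.57). The summed unlogged signal of the list was 155 to 200 there against 96.3 to 103 in wild type and 90.6 to 101 in the BRI1 line. Most of that rise came from SEP3, while AP3 (0.28), SEP1 (0.11), AP1 (0.06) and PI (0.05) were not called in the arrays labelled 35S::AVP1. Of 7 root markers PYK10 (0.86) and PHO1 (0.81) were called higher there, and the summed signal, most of it from PYK10, was 3743 to 3795 against 2014 to 2309 in wild type and 2854 to 3905 in the BRI1 line. PYK10 in the BRI1 line was 0.68 above wild type with no overlap between the groups, at a limma adjusted p of 0.0902 (unadjusted 0.000113). Of 6 shoot meristem markers 0 were called against wild type in either line by limma. At an unadjusted p under 0.05 were 0 in the BRI1 line (1102 of all 20777 loci) and 1 in the arrays labelled 35S::AVP1 (5027). Of the flower list, AG lay under the 10th percentile in wild type and in the BRI1 line. Between the lines 2 of the 6 flower markers were lower in the BRI1 line, and CLV1 of the meristem list was higher (0.23, limma adjusted p = 0.041). Of all loci 6.27% were called lower and 4.05% higher there. The part of these markers in the changes above was not tested.

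Between the lines, 5 of the 8 transcripts were lower in the BRI1 line and BAS1 was higher, beside 2144 of all loci (10.3%), 841 higher (4.05%) and 1303 lower (6.27%). After quantile normalization the loci called were 1044 higher and 950 lower, and after median centring 1069 and 825. The 6 did not overlap between the lines, against 30.3% of all loci (9.36% higher and 21.0% lower), and the medians were -0.28 for the 8 and -0.05 for all loci. The calls of BR6OX2, BR6OX1 and BAS1 held without any 1 of the 9 arrays, at an adjusted p of up to 0.000599, 0.0327 and 0.0394. Those of DWF4 and CPD were lost without BRI1 line replicate 2 or 3 or replicate 2 labelled 35S::AVP1, DWF4 also without replicate 3 and CPD without replicate 1 of that label (up to 0.12). Of the fits without 1 array, that of CYP90D1 held only without wild type replicate 1. The DWF4 call was also lost after median centring (limma adjusted p = 0.0632) and when only the 6 arrays compared were fitted (0.0521). The CPD call was also lost after quantile normalization (0.0628) and median centring (0.0644).

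**Figure D3:**
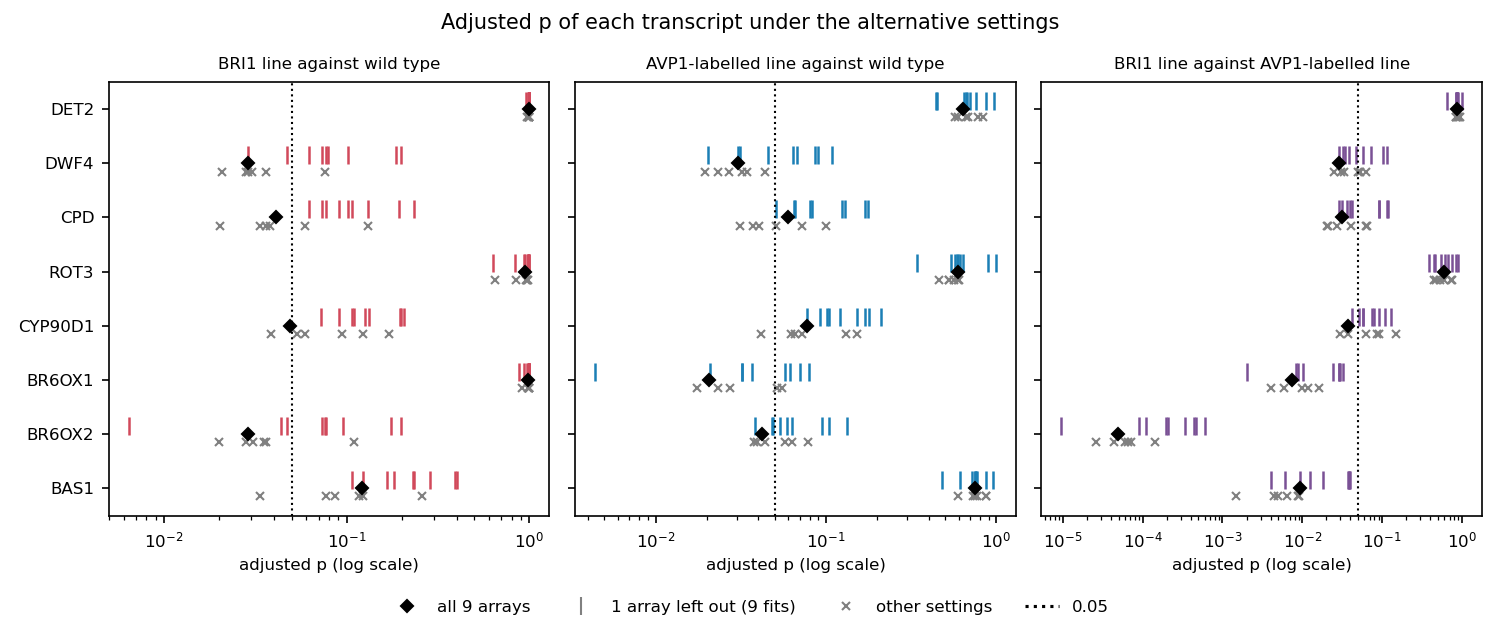
Adjusted p over all loci (x axis, log scale) of each transcript in each comparison. Diamonds are the fit to all 9 arrays, vertical ticks the 9 fits without 1 array, crosses the other settings and the dotted line 0.05. Ticks and crosses of BR6OX1, BR6OX2 and BAS1 all lie left of the line between the lines, and most ticks of the 4 transcripts called in the BRI1 line against wild type lie right of it.

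DWF4, CPD and CYP90D1 shared the order wild type above 35S::AVP1 above BRI1 line, with all 3 groups apart. This order was noticed after the values were seen, and it held for 18 of 20777 loci (0.0866%). Ranked by the distance from wild type to the BRI1 line, DWF4 was 5, CPD 6 and CYP90D1 8 of those 18. BR6OX2 had the order 35S::AVP1 above wild type above BRI1 line, which 146 loci (0.703%) had. In any order, the 3 genotypes were apart for 4 of the 8 transcripts and for 2.24% of all loci. The comparisons of the lines with wild type share the wild type arrays.

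Likeness over the 9 arrays was measured by Pearson's r with the loci that ranged over at least 0.5 on the log2 scale, and it includes the differences between the 3 genotypes. The locus most like DWF4 was CPD, and the locus most like CPD was DWF4, at r = 0.967, among 6586 loci. Within genotypes, as deviations from the group mean, they correlated at 0.629. DWF4 was also the locus most like CYP90D1 (r = 0.909), but the deviations within genotypes correlated at -0.358, opposite in sign to the r over all arrays. CPD and CYP90D1 had r = 0.878 over the 9 arrays and -0.81 within genotypes. With 3 arrays per genotype these deviations are few, and their signs were not tested. CYP71B22, another P450 gene, followed CPD for DWF4 (0.955), AT3G05730 followed DWF4 for CPD (0.936), and AT4G14720 (PPD2), a repressor of leaf growth, followed DWF4 for CYP90D1 (0.908).

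For the other transcripts the most similar loci were no members of the pathway lists. BAS1 was most like GA3OX1, which makes active gibberellin, at r = 0.957 (0.761 within genotypes). GA3OX1 averaged 6.96 in wild type, 6.95 in the arrays labelled 35S::AVP1 and 7.73 in the BRI1 line. BAS1 was next most like AT3G01960 (0.928). BR6OX2 was most like AT5G03120 (0.989) and ENP (0.945), a gene of organ formation that acts with auxin transport. BR6OX1 was most like AT1G70430 (0.989) and AT5G65910 (0.974), ROT3 like AT5G59080 (0.974) and AT5G12310 (0.965), and DET2 like AT3G52470 (0.943) and the chloroplast chaperone gene cpHsc70-2 (0.912). Between members, BAS1 ran against CYP90D1 (r = -0.876) and BR6OX2 (-0.838) over the 9 arrays, and within genotypes at -0.535 and -0.307. For BAS1 with DWF4 (-0.715) and with CPD (-0.712) the sign turned within genotypes, to 0.649 and 0.758.

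Among 10 sterol synthesis genes, not all of them on the route to campesterol, 0 were called in the BRI1 line against wild type. Of these 10, 2 had an unadjusted p under 0.05, as had 1102 of all 20777 loci. The lowest p-values belonged to DWF7 (-0.22, adjusted p = 0.824), SMT3 (-0.29) and FK (-0.15). The median of the 10 was -0.07. Where the label was 35S::AVP1, 1 of 10 was called, beside 11.1% of all loci. This was the sterol methyltransferase SMT3, which acts in the branch to sitosterol. SMT3 fell from 8.32 ± 0.252 to 7.39 ± 0.167 (SD, n = 3), a log2 change of -0.93 (limma adjusted p = 0.00118), and it was higher in the BRI1 line than in those arrays by 0.64 (adjusted p = 0.0111).

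Of 10 other genes of brassinosteroid inactivation or modification 6 were measured. In the BRI1 line 0 were called and 1 had an unadjusted p under 0.05, with BEN1 at 0.20, SOB7, a relative of BAS1, at 0.22 and the sulfotransferase SOT12 at -0.33 (adjusted p 0.847 to 0.974). The arrays labelled 35S::AVP1 had 0 called by limma and 1 had an unadjusted p under 0.05, SOT12 at 0.84 (adjusted p = 0.0685). Among all 20777 loci, 1102 in the BRI1 line and 5027 in the arrays labelled 35S::AVP1 had such a p against wild type. SOT12 measured 7.45, 6.98 and 6.56 in wild type, 7.80, 8.33 and 7.37 in the arrays labelled 35S::AVP1 and 6.51, 6.88 and 6.61 in the BRI1 line. It was the 1 of 6 called between the lines, lower in the BRI1 line (log2 change -1.16, limma adjusted p = 0.0172), beside 10.3% of all loci called.

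Of 16 transcription factors and other proteins reported to regulate the 8 genes, 10 were measured, and BZR1, BES1, TCP1 and LOB were not among them. Against wild type 0 of 10 were called in the BRI1 line, with 3 at an unadjusted p under 0.05, and 0 in the arrays labelled 35S::AVP1, with 0 at that level. Of all 20777 loci 1102 and 5027 were at that level, respectively. BEH2, a homolog of BZR1, measured 7.19, 7.08 and 7.14 in wild type, 7.12, 7.06 and 7.06 in the arrays labelled 35S::AVP1 and 6.78, 6.68 and 6.69 in the BRI1 line. The BRI1 line was below all other arrays, at a log2 change of -0.42 against wild type (adjusted p = 0.0626) and -0.37 against the arrays labelled 35S::AVP1, where it was called (adjusted p = 0.00486). BEE1, a growth-promoting bHLH gene, was 0.64 above wild type in the BRI1 line (adjusted p = 0.543) and BEE3 0.42 (0.663). BEE1 was called higher in the BRI1 line than in the arrays labelled 35S::AVP1 (0.73, adjusted p = 0.0235).

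**Figure D4:**
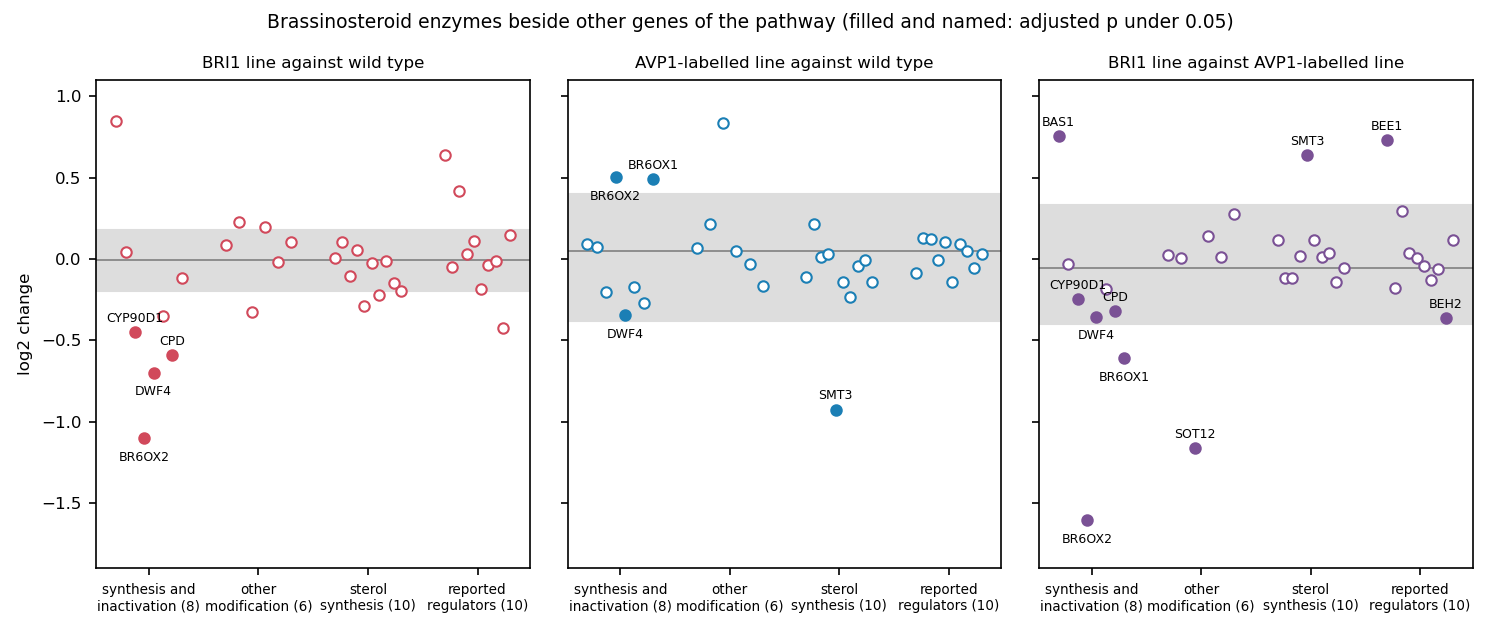
Log2 change (y axis) of the 8 enzymes and of 3 related gene lists in the 3 comparisons, 1 point per measured locus, filled and named where the adjusted p was under 0.05. The grey band spans the 5th to 95th percentile of all loci, and the line is their median. In the BRI1 line against wild type the filled points, from -1.10 to -0.45, all belong to the enzymes.

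The measured loci next to the 8 genes on either side, 16 in all, were added after values were seen. In the BRI1 line against wild type 0 were called by limma, and their log2 changes ran from -0.18 to 0.16. In the arrays labelled 35S::AVP1 1 of the 16 was called, against 11.1% of all loci. This was PRA8 beside CYP90D1, which was higher by 0.46 (adjusted p = 0.0165), while CYP90D1 was at -0.20. Between the lines PRA8 was the 1 of 16 called, against 10.3% of all loci. It was lower in the BRI1 line (-0.56, adjusted p = 0.00618), as CYP90D1 was (-0.25).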

How the data were processed

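The authors deposited log2 values, made from ATH1 arrays with RMA, per the submitters' processing notes. Neither its version nor the probe map or array set used is stated there. The table holds 1 value per locus and array and no detection calls or counts, and precision is limited by having 3 arrays per genotype. Genotype means were estimated for 20777 loci and 9 arrays with limma 3.58.1 in R 4.3.3 (6 residual and 3.94 prior degrees of freedom), and 3 contrasts were each adjusted by Benjamini-Hochberg over all loci. The model was also run on simulated data with independent noise and no batch or array effects, which says nothing on the calls reported here. The named genes are the 8 members, BRI1 and AVP1, the called loci of 3 context lists or else the 3 with the lowest p, and the 2 loci most like each member. Members and lists were chosen with earlier results of these data known. The order of the 3 genotypes and the neighbouring loci were examined after values were seen. Names and gene order come from a table for the assembly TAIR10.1, which held 20508 of the loci. Promoter sequences were not analysed here.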

Additional observations from a re-analysis of the deposited data

How the results depend on the processing

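The model was refitted under 6 other settings and without each of the 9 arrays. Of 357 log2 changes of single transcripts, 260 kept direction and side of the threshold, 84 lost a call, 5 gained one and 8 turned sign, none of them called. Many of the 260 belonged to transcripts not called with all 9 arrays, which had no call to lose. Against wild type, the DWF4 call in the BRI1 line held in 5 of 6 other settings and 2 of 9 fits without 1 array. For BR6OX2 these counts were 5 and 3, for CPD 4 and 0, and for CYP90D1 1 and 0. Without wild type replicate 1, BR6OX1 was at 0.00496 in the BRI1 line (-0.20 to 0.00496 without 1 array) and ROT3 at 0.00403 in the arrays labelled 35S::AVP1 (-0.30 to 0.00403). BAS1 in the latter was at -0.0471 without wild type replicate 3 and -0.0224 without replicate 2 labelled 35S::AVP1 (-0.0471 to 0.206). DET2 between the lines was at 0.0141 after quantile normalization, 0.0254 after median centring, 0.0353 without replicate 3 labelled 35S::AVP1 and 0.00027 without BRI1 line replicate 2 (-0.0921 to 0.0353). In the BRI1 line against wild type, 2 of the 8 transcripts were called after quantile normalization, 0 (of 7 loci in all) when only the 6 arrays compared were fitted, and 0 to 2 (of 3 to 10 loci) without 1 array. In the arrays labelled 35S::AVP1 1 was called from the 6 arrays compared and 0 to 3 without 1 array. Between the lines 3 were called after median centring and 3 to 6 without 1 array, among 1298 to 2419 loci. The cause was not tested. Loci called higher and lower were 9 and 5 (BRI1 line), 1065 and 1102 (35S::AVP1) and 1044 and 950 (between the lines) after quantile normalization, and 11 and 6, 1010 and 1125, and 1069 and 825 after median centring. Deviations correlated at 0.02 to 0.48 in the 9 pairs of arrays sharing a replicate number, over 0.1 in 5. In the 18 pairs with different numbers they correlated at -0.497 to 0.491, over 0.1 in 2. No label ties these numbers to a batch. A fit with the replicate number as a block called 4, 4 and 6 transcripts in the 3 comparisons. Against wild type it gained BAS1 (adjusted p = 0.0333) and lost CYP90D1 (0.0532) in the BRI1 line, gained CPD (0.0372) in the arrays labelled 35S::AVP1, and changed no other call. BR6OX1, with a mean under 5, had no value where dim loci were left out.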
